A study of Mus musculus with 36 samples.

Results

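The genes described here are the interferon response genes of C2C12 myotubes, contractile muscle fibres grown from an immortalised mouse myoblast line. A list of 40 genes known to act in or to be induced by interferon signalling was matched by name, and a gene was kept with 1 or more CPM (counts scaled to library size) in no fewer than 12 of the 36 libraries. By this rule 37 of the 40 genes were kept, among 13995 genes of the 55416 in the count table that passed the same filter. *Oasl1* reached 1 CPM in 1 library, and *Oas1a* and *Rsad2* in 0 libraries, so these 3 genes were not tested. Levels below are given in RPM, which are CPM scaled further with the TMM factors of edgeR.

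Myotubes were transfected on day 3 of differentiation with an LNA GapmeR, an antisense oligonucleotide that directs RNase H to a transcript, and were harvested on day 4. The oligonucleotide was directed at the long noncoding RNA *Tug1* (*Tug1* KD) or was a negative control (control), so that control myotubes were transfected as well. Each was studied unstimulated (Rest), directly after 3 h of electrical pulse stimulation (EPS 0h), or after 3 h of EPS and 3 h of recovery (EPS 3h), with 6 libraries in each of the 6 groups. EPS makes myotubes contract and was given at 13 V and 66 Hz in pulses of 2 ms, 5 s on and 5 s off. The sources list no Rest group matched to the 3 h of recovery. At EPS 3h, effects of EPS and recovery therefore cannot be told apart from those of longer time in culture and after transfection. The study describes triplicate wells from 2 independent experiments with this 1 cell line, so p-values measure the spread between such wells. Replicates 1 to 3 stood apart from replicates 4 to 6 in many of the genes below. Which replicate number belongs to which experiment is not given in the sources used here, and the calls that did not pass within a set are listed with the sets.

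Library sizes ranged from 17005079 to 24181167 counts, so that 3 counts correspond to 0.154 CPM at the median size. *Tug1* itself fell with the knockdown at Rest (27.2 RPM, SD 3.68, against 48.3 RPM, SD 6.77, in control, n = 6 each, log2FC -0.83, FDR = 0.000915, edgeR), at EPS 0h (log2FC -0.57, FDR = 0.0178) and at EPS 3h (log2FC -0.51, FDR = 0.0414). All 10 myotube markers averaged over 1 RPM, with *Myog* between 731 and 1227 RPM. Of 8 leukocyte markers only *Cd68* averaged at least 1 RPM, and they summed to between 2.14 and 7.25 RPM in a library. Plasmacytoid dendritic cells are a main source of type I interferon in the body, and 3 of their markers summed to at most 1.07 RPM. *Bst2*, also on that marker list, is one of the genes described here and was left out of the sum. It averaged 33.8 RPM (SD 11.2, n = 6) in Rest control. In bulk samples such as these, fewer cells of a type and less RNA per cell cannot be told apart.

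Interferons are secreted proteins that cells release when sensors such as RIG-I (*Ddx58*), MDA5 (*Ifih1*), TLR3 or ZBP1 meet foreign nucleic acid. Through their receptors and JAK kinases they activate factors such as STAT2 and IRF9, which bind the interferon-stimulated response element (ISRE) of antiviral genes, whereas interferon-gamma acts through the gamma-activated site (GAS) of genes such as *Irf1*. IRF3 starts interferon production and IRF7 amplifies it. In skeletal muscle this programme is best known from inflammatory myopathies, in which muscle fibres carry an interferon signature.

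The ISRE core was searched as GAAANNGAAA, and the GAS as TTCNNNGAA, on both strands of RefSeq promoter windows (GRCm38.p6) that reach from 250 bases before to 50 bases after a gene start. A window was found for 31 of the 40 genes and for 28 of the 37 tested. The ISRE core was present for 12 of these 28 genes (42.9%), compared with 1079 of the 27025 genes with a window (3.99%). The GAS was present for 6 of the 28 (21.4%), compared with 9.55% of all genes, and in *Bst2* a GAS match overlapped an ISRE match. These matches describe letters and not binding. No window was found for *Dhx58*, *Ifi27*, *Mx1*, *Mx2*, *Oas2*, *Parp14*, *Parp9*, *Usp18* and *Zbp1*. The first 4 stretches below are shown because their genes hold an ISRE core and differed at least 1.5 times between the replicate sets, and the last because *Irf1* had the largest fall of the 37 genes at EPS 3h. Capitals mark the matched motif, and each stretch is read 5′ to 3′ on the strand of its gene.
*Isg15*, chr4:156200850-156200921, minus strand: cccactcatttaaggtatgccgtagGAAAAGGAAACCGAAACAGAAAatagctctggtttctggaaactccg
*Ifit1*, chr19:34640760-34640838, plus strand: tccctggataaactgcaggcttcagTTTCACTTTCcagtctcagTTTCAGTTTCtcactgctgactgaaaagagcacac
*Ifit3*, chr19:34583348-34583441, plus strand: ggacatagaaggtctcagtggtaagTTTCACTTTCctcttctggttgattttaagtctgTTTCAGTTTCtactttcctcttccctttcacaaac
*Gbp3*, chr3:142559974-142560039, plus strand: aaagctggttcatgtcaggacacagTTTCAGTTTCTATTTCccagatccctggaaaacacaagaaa
*Irf1* (GAS), chr11:53769899-53769957, plus strand: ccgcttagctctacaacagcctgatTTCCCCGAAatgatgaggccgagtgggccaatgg
The *Isg15* stretch holds 3 overlapping matches that begin between 78 and 66 bases before the start, and *Gbp3* holds 2 overlapping ones. *Ifit1* and *Ifit3* hold 2 separate matches each. The 94 bases shown for *Ifit3* are also found, letter for letter, before *Ifit3b* (chr19:34607744-34607837), and 57.8% of the 31-base words of *Ifit3b* transcripts occur in *Ifit3*. Reads may have been split between *Ifit3* and *Ifit3b*, so their separate values are uncertain.

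Compared per length, as RPM per kilobase of exon (RPKM, mean of the 6 groups), *B2m*, the invariant chain of MHC class I, had the highest level (166 RPKM), followed by *Ifi27* (26.3 RPKM), a small mitochondrial interferon-induced protein. *Ifi44* (0.14 RPKM) and the sensor *Ifih1* (0.242 RPKM) had the lowest, and the median of the 37 genes was 1.81 RPKM. In RPM, *B2m* ranged from 320.3 to 372 RPM (median 350.0) in Rest control and from 306 to 455 RPM (median 339) in EPS 3h control, and *Ifi27* from 127 to 145 RPM (median 137) and from 98.9 to 146 RPM (median 118). For both genes the groups overlapped. *Ifih1* had a median of 1.84 RPM and *Ifi44* of 0.871 RPM in Rest control. The antiviral genes *Oas2* (mean 1.1 RPM, SD 0.831, n = 6), *Mx1* (0.616 RPM, SD 0.436) and *Usp18* (0.891 RPM, SD 0.307) were measured near 1 RPM in Rest control, so that their folds carry wide errors.

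In control myotubes part of the programme fell after EPS, among it *Irf1*, *Tap1* and *Parp14*, while *Mx2* rose. Directly after EPS (EPS 0h against Rest) 11 of the 37 genes were downregulated (29.7%, background 18.4% of all genes tested) and 1 was upregulated (2.7%, background 20.5%). After recovery (EPS 3h against Rest) 16 were downregulated (43.2%, background 25.9%) and 2 were upregulated (5.41%, background 26.1%). The median log2FC of the 37 genes was -0.39 at EPS 0h and -0.59 at EPS 3h, beside -0.03 and -0.02 for all genes. Both times were compared with the same Rest libraries and are not independent of each other. With the replicate number as a block, 18 genes were down (48.6%, background 25.5% in the same fit) and 1 was up (2.7%, background 24.4%) at EPS 0h. At EPS 3h 22 were down (59.5%, background 31.6%) and 4 up (10.8%, background 29.6%) in this fit.

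**Figure D1:**
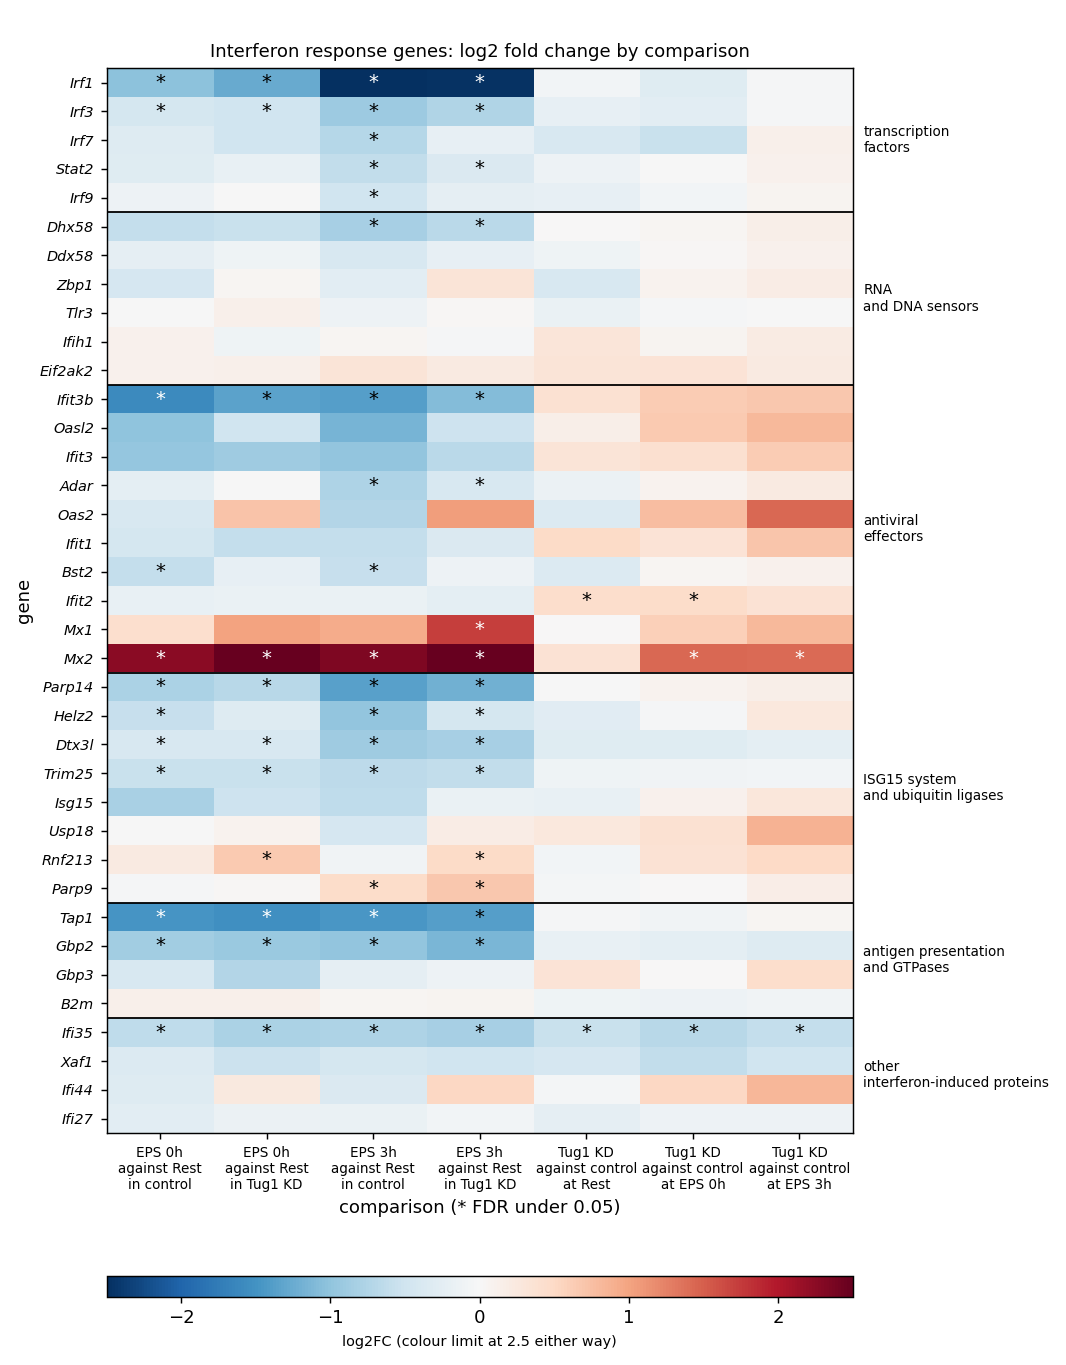
Heat map of the log2FC of the 37 interferon response genes (rows, grouped by role) in 7 comparisons (columns), with an asterisk where FDR was under 0.05 and colours limited at 2.5 in either direction. *Irf1* and *Tap1* are negative and *Mx2* is positive in each EPS comparison with Rest, and *Ifi35* is marked in each of the 3 *Tug1* KD comparisons.

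Of the 5 transcription factors, 2 were downregulated at EPS 0h and 5 at EPS 3h. *Irf1*, the GAS-driven factor shown above, ranged from 56.8 to 100.8 RPM (median 60.5) at Rest, from 24.8 to 37.2 RPM (median 34) at EPS 0h and from 8.64 to 16.7 RPM (median 10.7) at EPS 3h. The 3 groups did not overlap. It fell by 1.02 (SE 0.14, FDR = 4.18e-07) at EPS 0h and by 2.52 (SE 0.15, FDR = 5.77e-16) at EPS 3h on the log2 scale, the latter a 5.73-fold decrease. Replicate 6 of Rest stood apart at the upper end, and the log2FC at EPS 3h was -2.53 in replicates 1 to 3, which do not hold that library, and -2.5 in replicates 4 to 6. *Irf1* (GRCm39 chr11:53660812-53669200, plus strand) is overlapped on the other strand by the noncoding *Gm12216*, which had 1138 counts in all libraries beside 26499 for *Irf1*.

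*Irf3*, the factor that starts interferon production, ranged from 42 to 61 RPM (median 55.4) at Rest, from 35.2 to 44.9 RPM (median 40.4) at EPS 0h and from 26.5 to 36.1 RPM (median 27.6) at EPS 3h. The EPS 0h libraries overlapped those at Rest and the EPS 3h libraries did not. Its level fell by 0.44 (SE 0.10, FDR = 0.000492) and by 0.91 (SE 0.10, FDR = 1.68e-09) on the log2 scale, and at EPS 0h the log2FC was -0.67 (FDR = 0.000937) in replicates 1 to 3 and -0.22 (FDR = 0.135) in replicates 4 to 6. *Stat2* ranged from 38.2 to 45.3 RPM (median 40.3) at Rest and from 20.7 to 32.2 RPM (median 27.5) at EPS 3h (log2FC -0.61, SE 0.13, FDR = 0.000229). *Irf9*, its partner, ranged from 22.1 to 30.1 RPM (median 25) and from 13.9 to 21 RPM (median 18.9) (log2FC -0.50, SE 0.17, FDR = 0.0126). For both genes Rest and EPS 3h did not overlap, and at EPS 0h neither passed the test (*Stat2* log2FC -0.30, FDR = 0.0752, and *Irf9* log2FC -0.14, FDR = 0.547). With the block *Stat2* passed at EPS 0h too (FDR = 0.0253). *Irf7*, the amplifier, ranged from 3.85 to 9.95 RPM (median 5.72) at Rest and from 2.59 to 5.28 RPM (median 3.87) at EPS 3h (log2FC -0.71, SE 0.28, FDR = 0.0334), with overlap. Its log2FC was -1.12 in replicates 1 to 3 and -0.24 (FDR = 0.428) in replicates 4 to 6.

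Of the 6 sensors of RNA and DNA, 0 passed the test at EPS 0h (edgeR), where *Dhx58* had an unadjusted p under 0.05, and 1 passed at EPS 3h. *Dhx58* (LGP2, a regulator of RIG-I and MDA5) ranged from 1.22 to 2.63 RPM (median 2.12) at Rest, from 1.07 to 1.58 RPM (median 1.31) at EPS 0h (log2FC -0.60, FDR = 0.0843) and from 0.397 to 1.65 RPM (median 1.12) at EPS 3h (log2FC -0.83, SE 0.28, FDR = 0.0141). The Rest and EPS 3h libraries overlapped, and in replicates 4 to 6 alone the FDR at EPS 3h was 0.09. With the block *Dhx58* also passed at EPS 0h (FDR = 0.0216), and *Ddx58* (log2FC -0.39, FDR = 0.0253) and the RNA-dependent kinase *Eif2ak2* (log2FC 0.33, FDR = 0.028) at EPS 3h. Without it, the log2FC of *Ddx58*, *Ifih1*, *Tlr3*, *Zbp1* and *Eif2ak2* at EPS 3h lay between -0.40 (*Ddx58*) and 0.32 (*Eif2ak2*).

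Of the 10 antiviral effectors, 1 was upregulated at each time, and 2 were downregulated at EPS 0h and 3 at EPS 3h. *Mx2*, an MX dynamin-like GTPase, ranged from 2.91 to 8.61 RPM (median 4.76) in Rest control, from 13.9 to 38 RPM (median 21.6) at EPS 0h and from 13 to 42 RPM (median 24.2) at EPS 3h. No EPS library overlapped the Rest libraries, and the fold was 4.77 at EPS 0h (log2FC 2.25, SE 0.32, FDR = 7.14e-07) and 5.01 at EPS 3h (log2FC 2.33, SE 0.32, FDR = 1.56e-07). The count table lists *Mx1* and *Mx2* as polymorphic pseudogenes. *Mx1* lies on the other strand 72400 bases from *Mx2*, and 8.12% of the 31-base words of its transcripts occur in *Mx2*. It had a median of 0.413 RPM at Rest and 1.01 RPM at EPS 3h (log2FC 0.92, SE 0.50, FDR = 0.118), and passed with the block (FDR = 0.0118).

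*Ifit3b*, with the doubt about paralogs named above, had medians of 1.83, 0.626 and 0.577 RPM at Rest, EPS 0h and EPS 3h and fell by 1.60 (SE 0.46, FDR = 0.00571) and by 1.38 (SE 0.46, FDR = 0.011) on the log2 scale. *Ifit3* had a log2FC of -0.97 and -0.98 (FDR = 0.0811 and 0.0625), and with the block it passed (FDR = 0.00297 and 0.000993). *Adar*, the RNA editing enzyme, ranged from 24.2 to 34.2 RPM (median 29.5) at Rest and from 12.4 to 21.6 RPM (median 17.1) at EPS 3h (log2FC -0.78, SE 0.13, FDR = 8.40e-06), without overlap. *Bst2* (tetherin, which holds budding virions at the membrane) was lower at EPS 0h (log2FC -0.60, FDR = 0.0435) and EPS 3h (log2FC -0.59, FDR = 0.0379), with overlapping groups. In replicates 4 to 6 alone its log2FC was -0.11 (FDR = 0.729) and -0.36 (FDR = 0.142). *Ifit1*, *Ifit2*, *Oas2* and *Oasl2* did not pass at either time, and with the block *Oasl2* passed at both (FDR = 0.0015 and 0.00029) and *Ifit1* at EPS 3h (FDR = 0.039).

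Of the 8 genes of the ISG15 system and the ubiquitin and PARP ligases, 4 were downregulated at both times, namely *Parp14*, *Helz2*, *Trim25* and *Dtx3l*. *Parp14*, a mono-ADP-ribosyltransferase, ranged from 5.18 to 9.88 RPM (median 6.26) at Rest, from 3.32 to 4.37 RPM (median 4.02) at EPS 0h and from 1.99 to 3.6 RPM (median 2.51) at EPS 3h (log2FC -1.36, SE 0.19, FDR = 2.05e-07). *Helz2*, a helicase that acts as a nuclear receptor coactivator, ranged from 25.3 to 37 RPM (median 28.7) at Rest and from 12 to 19.9 RPM (median 14.4) at EPS 3h (log2FC -0.99, SE 0.14, FDR = 2.80e-07). *Trim25*, the ligase that activates RIG-I, ranged from 23.8 to 29.5 RPM (median 27.7) and from 14.2 to 20.8 RPM (median 17.1) (log2FC -0.65, SE 0.10, FDR = 1.42e-06). For these 3 genes Rest did not overlap EPS 3h. *Isg15*, the ubiquitin-like modifier, ranged from 3.19 to 9.21 RPM (median 4.7) at Rest, from 2.38 to 3.71 RPM (median 3.08) at EPS 0h and from 2.33 to 5.78 RPM (median 3.27) at EPS 3h. Its log2FC of -0.81 (FDR = 0.077) and -0.64 (FDR = 0.144) did not pass, and with the block both passed (FDR = 0.0138 and 0.0308).

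*Dtx3l* and *Parp9* encode partners of one ligase complex and are transcribed away from each other on chromosome 16 (*Dtx3l* chr16:35746881-35759521, minus strand, and *Parp9* chr16:35758840-35792980, plus strand, GRCm39), with 682 bases in common. In control myotubes *Dtx3l* ranged from 13.3 to 17.5 RPM (median 14.2) at Rest and from 5.44 to 11 RPM (median 8.25) at EPS 3h, without overlap, and *Parp9* from 9.97 to 13.9 RPM (median 11.8) and from 12.7 to 22.6 RPM (median 14.3), with overlap. *Dtx3l* thus fell (log2FC -0.89, SE 0.14, FDR = 2.33e-06) and *Parp9* rose (log2FC 0.46, SE 0.15, FDR = 0.0119). The log2FC of *Parp9* was 0.69 (FDR = 0.00259) in replicates 1 to 3 and 0.21 (FDR = 0.224) in replicates 4 to 6, and with library size as the only scaling it was 0.29 (FDR = 0.112). Reads from the shared bases can be told apart only where counting used the strand, and the setting is not given in the sources used here.

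For antigen presentation, *Tap1*, a subunit of the peptide transporter of MHC class I, ranged from 2.14 to 3.94 RPM (median 2.72) at Rest, from 0.676 to 1.41 RPM (median 1.05) at EPS 0h and from 0.773 to 1.36 RPM (median 1.14) at EPS 3h. Both EPS groups lay below each Rest library (EPS 0h log2FC -1.47, SE 0.18, FDR = 5.65e-08, and EPS 3h log2FC -1.46, SE 0.18, FDR = 2.28e-08). The guanylate-binding protein *Gbp2* had medians of 2.81, 1.62 and 1.46 RPM, without overlap with Rest (log2FC -0.88 and -0.99, FDR = 0.00999 and 0.00273). *B2m* had a log2FC of 0.13 (95% interval -0.09 to 0.36) at EPS 0h and 0.05 (95% interval -0.17 to 0.27) at EPS 3h. In replicates 1 to 3 alone *B2m* was called higher at EPS 0h (log2FC 0.28, FDR = 0.0334), and in replicates 4 to 6 its log2FC was -0.03 (FDR = 0.874). Of the 4 other interferon-induced proteins only *Ifi35*, a leucine zipper protein, passed, with medians of 25.2, 16.3 and 14.7 RPM (log2FC -0.64 and -0.78, FDR = 0.000315 and 1.19e-05). With the block, *Ifi27* passed at EPS 0h (log2FC -0.26, FDR = 0.0403), *Xaf1* at EPS 3h (log2FC -0.43, FDR = 0.0144) and the editing enzyme *Adar* already at EPS 0h (log2FC -0.25, FDR = 0.0387).

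**Figure D2:**
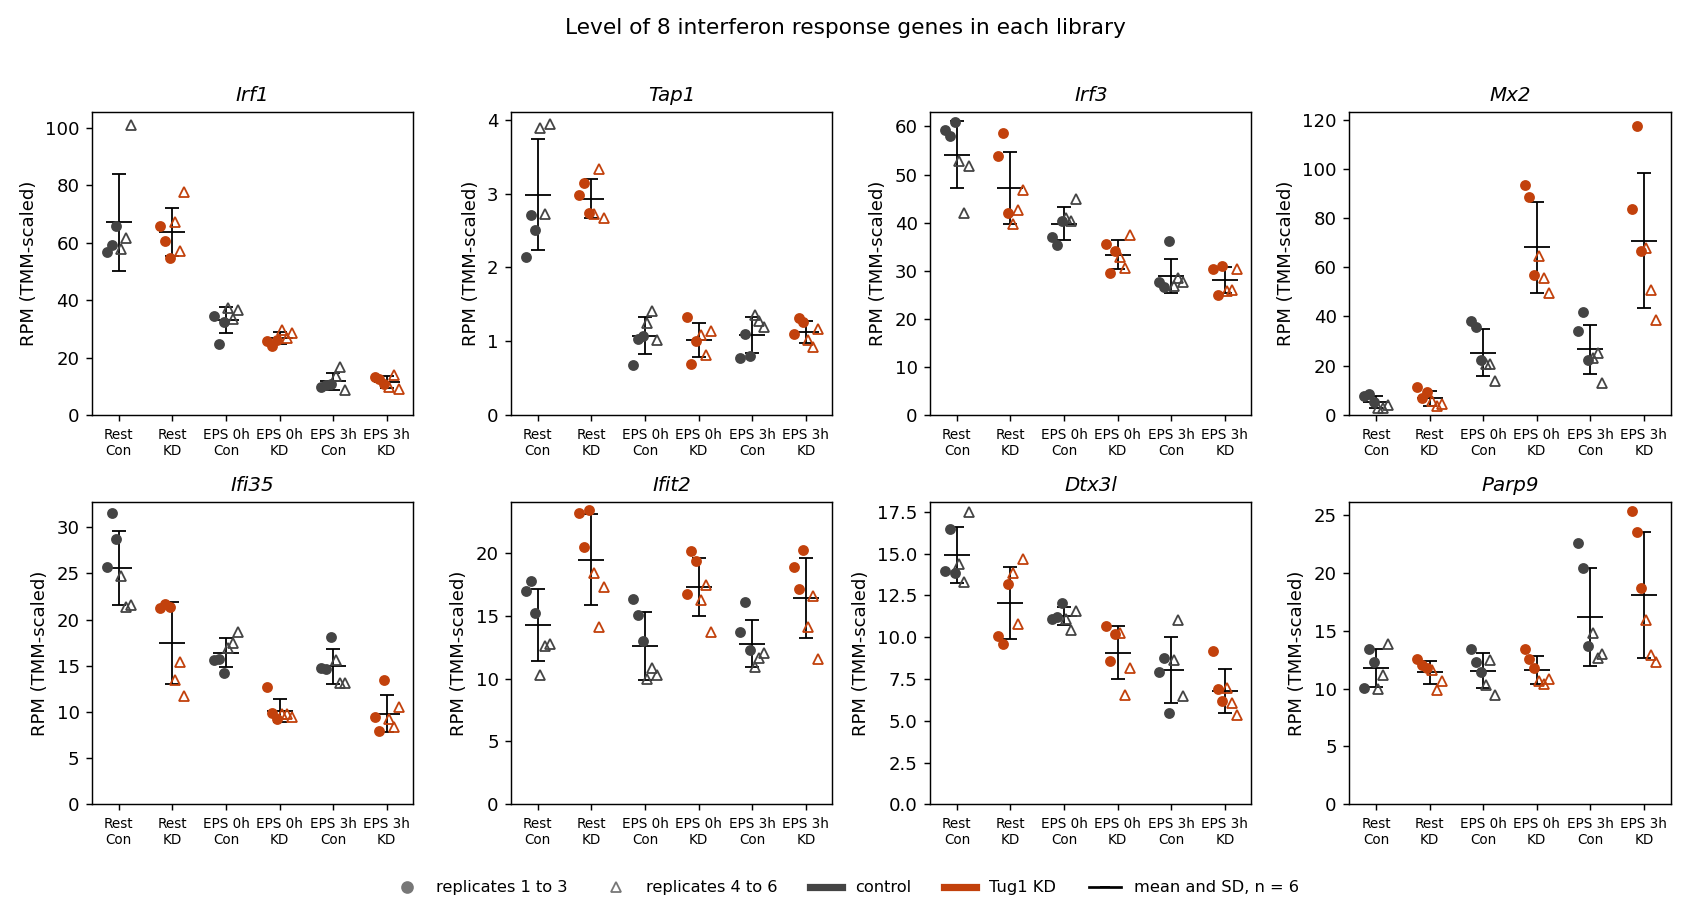
Level in RPM (TMM-scaled) of *Irf1*, *Tap1*, *Irf3*, *Mx2*, *Ifi35*, *Ifit2*, *Dtx3l* and *Parp9* in each of the 36 libraries by group, with filled circles for replicates 1 to 3, open triangles for replicates 4 to 6, and bars for the mean and SD of 6 libraries. *Irf1* steps down from a median of 60.5 to 10.7 RPM in control myotubes, and *Mx2* after EPS is higher in *Tug1* KD (orange) than in control (grey).

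From EPS 0h to EPS 3h, 6 genes of control myotubes fell further (16.2%, background 6.88%) and 1 rose (2.7%, background 9.67%). *Irf1* had the largest fall (log2FC -1.50, SE 0.14, FDR = 2.41e-09), and the others were *Parp14* (log2FC -0.58, FDR = 0.0339), *Adar* (log2FC -0.54, FDR = 0.00407), *Dtx3l* (log2FC -0.48, FDR = 0.0153), *Irf3* (log2FC -0.46, FDR = 0.000878) and *Helz2* (log2FC -0.40, FDR = 0.0428). *Parp9* rose (log2FC 0.49, FDR = 0.024). *Tap1* and *Mx2*, which had moved by EPS 0h, had a log2FC of 0.01 (95% interval -0.38 to 0.40) and 0.07 (95% interval -0.53 to 0.67) between the times.

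In *Tug1* KD myotubes the response to EPS was measured in libraries of its own. At EPS 0h 9 genes were downregulated (24.3%, background 21.2%), a share near the background, and 2 were upregulated (5.41%, background 24.4%). At EPS 3h 13 were downregulated (35.1%, background 25.9%) and 4 were upregulated (10.8%, background 26.2%). The median log2FC of the 37 genes in *Tug1* KD was -0.20 at EPS 0h and -0.23 at EPS 3h, beside -0.03 and -0.04 for all genes. With the block 14 were down (37.8%, background 29%) and 4 up (10.8%, background 27.9%) at EPS 0h. The 9 genes down at EPS 0h in both were 81.8% of those down in control and 100% of those down in *Tug1* KD, and the 13 at EPS 3h were 81.2% and 100%. No such shares over all genes are given beside these, so they do not set the 37 genes apart. Across the 37 genes the log2FC at EPS 3h in control and *Tug1* KD correlated with r = 0.92, beside 0.97 over all genes tested. Genes share libraries and are not independent replicates, so this is a description.

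*Irf1* ranged from 54.5 to 77.5 RPM (median 63.2) at Rest and from 8.86 to 13.8 RPM (median 11.6) at EPS 3h in *Tug1* KD (log2FC -2.47, SE 0.15, FDR = 5.71e-16), and *Tap1* from 2.67 to 3.33 RPM (median 2.86) and from 0.917 to 1.31 RPM (median 1.13) (log2FC -1.37, SE 0.18, FDR = 7.49e-08), both without overlap. *Mx2* ranged from 3.51 to 11.3 RPM (median 6.22) at Rest, from 49.5 to 93.4 RPM (median 60.8) at EPS 0h and from 38.5 to 117 RPM (median 67.3) at EPS 3h. Neither EPS group overlapped Rest, and *Mx2* rose 10-fold (log2FC 3.32, SE 0.32, FDR = 2.92e-10) and 10.4-fold (log2FC 3.38, SE 0.32, FDR = 6.04e-11). *Mx1* passed at EPS 3h (median 0.496 RPM at Rest and 1.52 RPM at EPS 3h, log2FC 1.72, SE 0.48, FDR = 0.00298), as did *Parp9* (log2FC 0.66, SE 0.15, FDR = 0.000425). *Rnf213*, a giant ubiquitin ligase, was called higher at EPS 0h (log2FC 0.65, FDR = 0.00565) and EPS 3h (log2FC 0.48, FDR = 0.0331). In replicates 1 to 3 its log2FC was 1.25 and 1.12, whereas in replicates 4 to 6 it was 0.07 (FDR = 0.842) and -0.14 (FDR = 0.602). *Irf7* and *Irf9*, called in control, had a log2FC of -0.20 (FDR = 0.584) and -0.23 (FDR = 0.27) at EPS 3h in *Tug1* KD. At EPS 0h the block added 5 falls, those of *Ifit3* (log2FC -0.72, FDR = 0.0238), *Gbp3* (-0.58, FDR = 0.042), *Dhx58* (-0.53, FDR = 0.0352), *Xaf1* (-0.48, FDR = 0.009) and *Helz2* (-0.33, FDR = 0.0352). It also added the rises of *Mx1* (1.08, FDR = 0.00526) and *Oas2* (0.75, FDR = 0.0309).

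**Figure D3:**
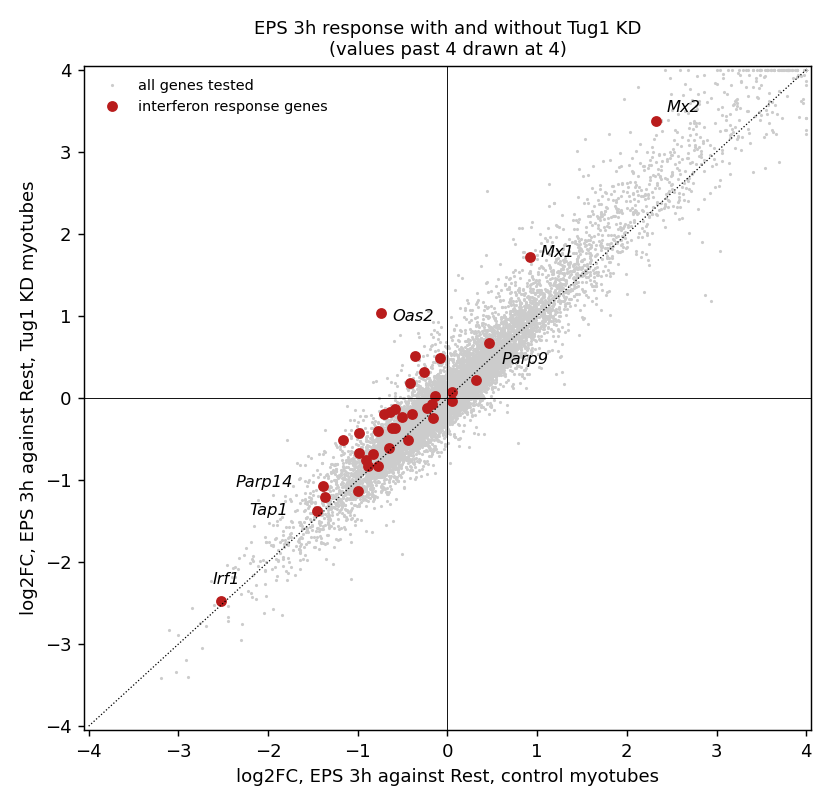
Scatter plot of the log2FC of EPS 3h against Rest in control (horizontal axis) and *Tug1* KD myotubes (vertical axis) for the 37 interferon response genes (red) and all genes tested (grey), with values past 4 drawn at 4. *Irf1* lies at -2.52 and -2.47, and *Mx2* at 2.33 and 3.38.

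Whether the response differed between *Tug1* KD and control was tested directly as an interaction. Of the 37 genes 0 passed at EPS 0h (background 0% of all genes) and 0 at EPS 3h (background 0.00715%), with edgeR as with DESeq2 and limma-voom, and 1 and 3 genes had an unadjusted p under 0.05. *Mx2* had a difference of 1.07 log2 units (95% interval 0.18 to 1.96, FDR = 1.00, edgeR) at EPS 0h and of 1.05 (95% interval 0.17 to 1.94, FDR = 1.00, edgeR) at EPS 3h, a larger rise in *Tug1* KD. With the block its FDR was 0.13 and 0.0647. Same-numbered libraries did not deviate together in each comparison that enters this interaction (lowest correlation -0.08 for *Tug1* KD against control at Rest). At EPS 3h *Helz2* had a difference of 0.56 (95% interval 0.16 to 0.96, FDR = 1.00, edgeR) and *Rnf213* of 0.57 (95% interval 0.02 to 1.12, FDR = 1.00, edgeR). For *Irf1* the 95% interval at EPS 3h was -0.36 to 0.46.

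Within a condition, 1 or 2 of the 37 genes were called in each direction under *Tug1* KD. At Rest 1 was downregulated (2.7%, background 4.47%) and 1 was upregulated (2.7%, background 5.54%). At EPS 0h 1 was down (2.7%, background 6.07%) and 2 were up (5.41%, background 8.25%), and at EPS 3h 1 was down (2.7%, background 5.11%) and 1 was up (2.7%, background 6.38%). Each share was below its background, but counts of 1 or 2 genes do not set the 37 genes apart from all genes. With the block, 3 genes were down (8.11%, background 11.2%) and 4 up (10.8%, background 13.1%) at EPS 0h, and 2 down (5.41%, background 9.75%) and 5 up (13.5%, background 10.8%) at EPS 3h. All but the last of these 4 shares were below the background of that fit. The median log2FC of the 37 genes was -0.10, 0.04 and 0.16 at Rest, EPS 0h and EPS 3h, and the median of all genes lay within 0.03 of 0.

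*Ifi35* was lower in *Tug1* KD in each condition. At Rest it ranged from 21.4 to 31.6 RPM (median 25.2) in control and from 11.7 to 21.7 RPM (median 18.3) in *Tug1* KD (log2FC -0.55, SE 0.14, FDR = 0.00549), with a narrow overlap. At EPS 0h it ranged from 14.2 to 18.7 RPM (median 16.3) in control and from 9.24 to 12.7 RPM (median 9.77) in *Tug1* KD (log2FC -0.70, SE 0.14, FDR = 0.000449), without overlap. At EPS 3h it ranged from 13.1 to 18.1 RPM (median 14.7) and from 7.92 to 13.4 RPM (median 9.35) (log2FC -0.60, SE 0.14, FDR = 0.00322), again with a narrow overlap. In replicates 1 to 3 alone the log2FC was -0.42 (FDR = 0.123) at Rest and -0.51 (FDR = 0.0734) at EPS 0h. *Ifi35* (GRCm39 chr11:101339221-101352693, plus strand) overlaps *Vat1* on the minus strand by 3400 bases, and *Vat1* had 229193 counts in all beside 11378 for *Ifi35*. *Vat1* had a log2FC of -0.16, -0.33 and -0.17 in the same comparisons (FDR = 0.726, 0.261 and 0.65), and its part in the values of *Ifi35* was not tested.

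*Ifit2*, an RNA-binding antiviral protein, ranged from 10.3 to 17.7 RPM (median 14) in control and from 14.1 to 23.4 RPM (median 19.4) in *Tug1* KD at Rest (log2FC 0.45, SE 0.15, FDR = 0.0468). At EPS 0h it ranged from 9.98 to 16.3 RPM (median 11.9) and from 13.7 to 20.2 RPM (median 17.1) (log2FC 0.46, SE 0.15, FDR = 0.0329). It was higher in *Tug1* KD in both, with overlapping groups. At Rest the FDR was 0.0670 with library size as the only scaling, and at EPS 0h it was 0.0662 without the filter on low counts. In replicates 1 to 3 alone it was 0.0543 at Rest (log2FC 0.42) and 0.114 at EPS 0h (log2FC 0.36). At EPS 3h the log2FC was 0.36 (SE 0.15, FDR = 0.121), and with the block it passed (FDR = 0.00837).

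*Mx2*, whose ranges are given above, was 2.69-fold higher in *Tug1* KD than in control at EPS 0h (log2FC 1.43, SE 0.30, FDR = 0.000706), without overlap, and 2.66-fold higher at EPS 3h (log2FC 1.41, SE 0.30, FDR = 0.00104), with a narrow overlap. At Rest the log2FC was 0.36 (95% interval -0.30 to 1.02, FDR = 0.61). Replicates 1 to 3 alone gave 1.32 at EPS 0h and replicates 4 to 6 alone 1.61. Whether the difference at EPS exceeds that at Rest is the interaction given above, which did not pass.

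*Irf3*, *Irf7*, *Irf9*, *Stat2*, *Isg15* and *B2m* did not pass in any condition, with a log2FC between -0.56 (*Irf7* at EPS 0h, FDR = 0.206) and 0.27 (*Isg15* at EPS 3h, FDR = 0.727). The block added *Irf3* at EPS 0h (log2FC -0.26, FDR = 0.0343). It also added the proapoptotic *Xaf1* at EPS 0h (-0.66, FDR = 0.00157) and EPS 3h (-0.57, FDR = 0.00813), and *Oas2* at EPS 0h (0.84, FDR = 0.0362) and EPS 3h (1.25, FDR = 0.00334). *Eif2ak2* was added at EPS 0h (0.35, FDR = 0.0481), and *Mx1* (0.80, FDR = 0.0457) and *Rnf213* (0.49, FDR = 0.0268) at EPS 3h.

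The replicate sets differed in level in many of these genes. In the median of the 6 groups, the mean of replicates 1 to 3 was at least 1.5 times that of replicates 4 to 6 for 14 of the 37 genes (37.8%), compared with 767 of all 13995 genes (5.48%). The ratio was at or below the inverse for 0 of the 37 genes, compared with 495 of all 13995. For *Gbp3*, *Ifi44*, *Ifit1*, *Ifit3* and *Oasl2* each library of replicates 1 to 3 was above each of replicates 4 to 6 in 6 of 6 groups (5 of 37 genes, compared with 1.76% of all genes). The sets were recognised from these libraries, so these counts are a description without a test. Among genes with a promoter window, an ISRE core was present for 6 of the 9 with a ratio of at least 1.5 and for 6 of the other 19. The GAS was present for 0 of the 9 and for 6 of the other 19.

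*Oas2*, an oligoadenylate synthetase that activates RNase L, had the highest median ratio (4.73), with means of 1.81 and 0.389 RPM in replicates 1 to 3 and 4 to 6 of Rest control and of 3.13 and 0.448 RPM in EPS 3h *Tug1* KD. *Oasl2* had means of 9.08 and 3.79 RPM in Rest control and of 11.4 and 2.84 RPM in Rest *Tug1* KD. *Ifit1*, an effector that binds foreign RNA caps, had means of 4.45 and 2.57 RPM in Rest control and of 8.32 and 1.53 RPM in Rest *Tug1* KD. The 16 genes that were down at EPS 3h in control had median ratios from 0.846 (*Adar*) to 2.62 (*Ifit3b*), with *Irf1* at 0.872, *Tap1* at 0.873, *Parp14* at 1.01, *Irf7* at 1.44 and *Dhx58* at 1.48.

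The summed levels of marker genes were also compared between the sets, without a test. The 4 fibroblast markers, of which 3 averaged at least 1 RPM, had a higher median sum in replicates 1 to 3 in 6 of 6 groups, 1.11 to 1.39 times that of replicates 4 to 6 (581 and 524 RPM for control myotubes at Rest, and 570.2 and 439 RPM for *Tug1* KD). The 6 markers of proliferating myoblasts were likewise higher in 6 of 6 groups (1.04 to 1.4 times), as were the myotube markers (1.00 to 1.12 times). The leukocyte markers were higher in 3 of 6 groups (0.756 to 1.23 times). The plasmacytoid dendritic cell markers were higher in 4 of 6 groups (0.606 to 1.83 times), and the endothelial markers in 4 of 6 (0.611 to 1.17 times). Of the fibroblast markers, *Col1a1* (mean 315 RPM) and *Dcn* (132 RPM) had the highest levels, beside 9.95 RPM for *Pdgfra* and 0.802 RPM for *Lum*. The part of these cells in the ratios was not tested.

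**Figure D4:**
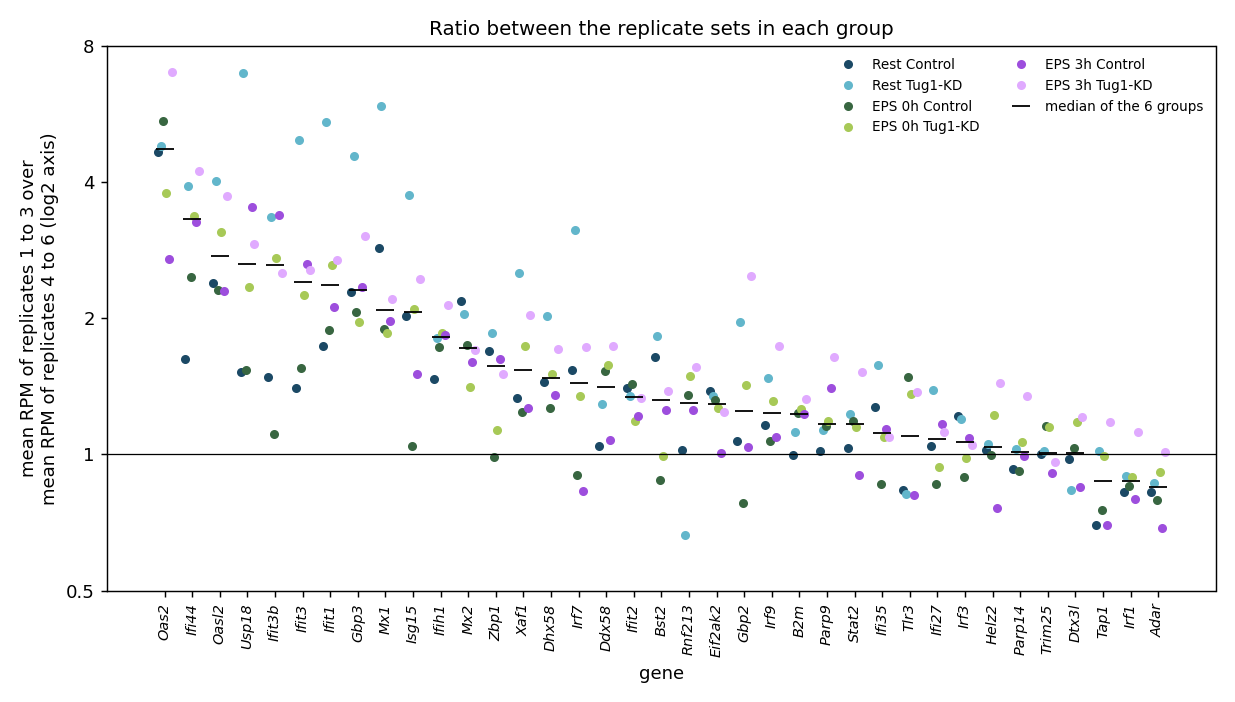
Ratio of the mean RPM of replicates 1 to 3 to that of replicates 4 to 6 (log2 axis) for each of the 37 genes, with 1 point per group and a black bar at the median of the 6 groups. The medians run from 4.73 for *Oas2* to 0.846 for *Adar*, and the highest points of *Usp18*, *Mx1*, *Ifit1* and *Ifit3* are those of Rest *Tug1* KD.

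The values of *Tug1* KD at Rest also differed by set. *Ifit3* averaged 6.1 RPM in control but 10.9 RPM after knockdown in replicates 1 to 3 (log2FC 0.84, FDR = 0.103), and 4.34 and 2.21 RPM in replicates 4 to 6 (log2FC -0.98, FDR = 0.0353). *Usp18*, the protease that removes ISG15, had a log2FC of 0.82 (FDR = 0.146) and -1.35 (FDR = 0.0484) in the same order. Fitted alone with edgeR, replicates 1 to 3 gave 0 calls among the 37 genes at Rest (background 2.9% down and 3.29% up) and 8 genes with an unadjusted p under 0.05. Replicates 4 to 6 gave 7 down (*Ifi27*, *Ifi35*, *Ifit3*, *Irf7*, *Isg15*, *Usp18* and *Xaf1*; 18.9%, background 6.9%) and 1 up (*Ifit2*; 2.7%, background 9.22%). The difference between the sets was not tested.

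The calls made over all libraries were looked up in each set, where fewer libraries enter the fit. For EPS 0h against Rest in control 11 of 12 calls passed in replicates 1 to 3 (all but *Dtx3l*) and 8 in replicates 4 to 6 (all but *Bst2*, *Dtx3l*, *Gbp2* and *Irf3*). For EPS 3h against Rest in control 17 of 18 passed in replicates 1 to 3 (all but *Bst2*) and 14 in replicates 4 to 6 (all but *Bst2*, *Dhx58*, *Irf7* and *Parp9*). In *Tug1* KD *Dtx3l* and *Parp14* did not pass at EPS 0h in replicates 1 to 3, nor *Gbp2* and *Rnf213* in replicates 4 to 6. At EPS 3h in *Tug1* KD *Adar*, *Helz2* and *Stat2* did not pass in replicates 1 to 3, nor *Dhx58*, *Ifit3b* and *Rnf213* in replicates 4 to 6. From EPS 0h to EPS 3h in control *Irf3* and *Parp14* did not pass in replicates 1 to 3, nor *Dtx3l*, *Helz2*, *Parp14* and *Parp9* in replicates 4 to 6. Of the *Tug1* KD calls *Ifi35* and *Ifit2* did not pass at Rest and EPS 0h in replicates 1 to 3, and each passed in replicates 4 to 6.

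Other parts of the pathway were read from further gene lists, beside a background of 26.1% of all genes up and 25.9% down at EPS 3h in control and a median log2FC of -0.02. Of 21 interferon genes 0 passed the filter, and they summed to 379 counts over the 36 libraries, with at most 14 counts of 1 gene in a library. *Ifnb1* had 74 counts and *Ifng* 72 in all. Of 9 receptor chains and kinases, 3 were up (33.3%) and 6 down (66.7%, median log2FC -0.58) at EPS 3h in control, where the type II receptor chain *Ifngr1* went from 39 RPM (SD 5.77) at Rest to 20.3 RPM (SD 2.75; log2FC -0.94, FDR = 5.99e-10) and the kinase *Tyk2* from 59 RPM (SD 5.02) to 31.7 RPM (SD 4.29; log2FC -0.90, FDR = 8.20e-10). The lambda receptor chain *Ifnlr1* rose from 0.296 RPM (SD 0.212) to 2.01 RPM (SD 0.766; log2FC 2.77, FDR = 8.79e-09).

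Of 15 negative regulators tested, 2 were up (13.3%) and 4 down (26.7%, median log2FC -0.15) at EPS 3h in control, among them the deubiquitinase *Cyld* (log2FC 1.12, FDR = 1.09e-07), the mitochondrial *Nlrx1* (log2FC -1.35, FDR = 7.31e-06) and the cytokine signalling suppressor *Socs3* (log2FC -1.28, FDR = 0.000118). Under *Tug1* KD *Cyld* was higher at Rest, EPS 0h and EPS 3h (log2FC 0.87, 0.72 and 0.70, FDR = 0.000106, 0.000743 and 0.00125). The dNTPase *Samhd1* was lower (log2FC -0.72, -0.73 and -0.79, FDR = 1.50e-08, 8.00e-09 and 2.34e-09), with 42 RPM (SD 1.25) in *Tug1* KD and 69 RPM (SD 4.54) in control at Rest. Of 17 adaptors and kinases of nucleic acid sensing, 8 were up (47.1%) and 5 down (29.4%, median log2FC 0.21) at EPS 3h in control, with the ligase *Traf6* among the former (log2FC 1.52, FDR = 1.08e-10). *Sting1*, the adaptor of cGAS, was lower at EPS 3h (log2FC -0.68, FDR = 0.00015) and under *Tug1* KD at Rest, EPS 0h and EPS 3h (log2FC -0.50, -0.80 and -0.76, FDR = 0.0171, 0.000149 and 0.000508).

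Of 66 other type I interferon-induced genes 41 were tested. At EPS 3h in control 3 were up (7.32%) and 17 down (41.5%, median log2FC -0.19). *Trim21*, an antibody receptor and ubiquitin ligase, went from 3.47 RPM (SD 0.53) at Rest to 0.758 RPM (SD 0.144; log2FC -2.19, FDR = 2.88e-09). *Slfn5* went from 1.86 RPM (SD 1.54) to 25.3 RPM with a wide spread (SD 15.8; log2FC 3.78, FDR = 1.82e-07). Under *Tug1* KD 0 were up in each condition with edgeR (2, 2 and 1 were higher at an unadjusted p under 0.05, and 1 passed with DESeq2 at EPS 3h), where the background was 5.54%, 8.25% and 6.38%. At Rest 6 were down (14.6%, background 4.47%), and at EPS 0h and EPS 3h 5 and 5 were down (12.2% each, backgrounds 6.07% and 5.11%). Among them were the membrane protein *Ifitm1* (log2FC -0.78, -1.0 and -0.75, FDR = 0.000945, 3.46e-05 and 0.00165) and the lysosomal reductase *Ifi30* (log2FC -0.59, -0.61 and -0.60, FDR = 3.00e-05, 1.53e-05 and 2.76e-05). Of 21 tested interferon-gamma GTPases and antigen presentation genes, 1 was up (4.76%) and 9 were down (42.9%, median log2FC -0.27) at EPS 3h in control. The immunity-related GTPase *Irgm1* went from 29.8 RPM (SD 2.36) at Rest to 12.2 RPM (SD 0.647; log2FC -1.29, FDR = 3.01e-10).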

How the data were processed

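RNA from 36 samples of C2C12 myotubes was sequenced as stranded poly-A libraries, and the authors deposited raw read counts per gene, made with fastp 0.14.1, FastQC 0.11.7 and STAR 2.5 on GRCm39 per the study's methods and the submitters' processing notes. The counting mode and strand setting are not given in the sources used here. Genes with at least 1 CPM (counts scaled to library size) in at least 12 libraries were tested with edgeR 4.0.16 (TMM, robust quasi-likelihood, 6 groups, no block, R 4.3.3), and a gene was called at a Benjamini-Hochberg FDR under 0.05 over 13995 genes. RPM values are TMM-scaled CPM, the SE is the log2FC divided by the square root of F, 95% intervals use the t distribution with 30 degrees of freedom, and the script was tested on simulated data. The study used limma-voom, which (limma 3.58.1) with DESeq2 1.42.0 served as an alternative.

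The members, lists and replicate sets were chosen with earlier results of these data known. Every member was named or counted, with full statistics for at most the 6 largest rises and falls per comparison, group values for members called under *Tug1* KD and for *Irf3*, *Irf7*, *Irf9*, *Stat2*, *Isg15* and *B2m*, and at most 3 genes per direction of the other lists. In the list of receptors and kinases, 1 gene is not reported here. Replicates within groups differed by more than counting noise (lowest chi-square per degree of freedom 4.32), so all 36 libraries were counted. Same-numbered libraries deviated together, with every pair's correlation over 0.1, for *Tug1* KD against control at EPS 0h (0.57 to 0.71) and EPS 3h (0.21 to 0.72), for both EPS responses of control (0.23 to 0.47 and 0.12 to 0.50) and for EPS 0h in *Tug1* KD (0.16 to 0.38). A library's own number gave the best match for 6, 2, 2, 5 and 3 libraries in these comparisons, in the same order, so the numbers need not be true pairs. The block is given for these comparisons and for the interaction of *Mx2*, which also draws on comparisons outside them. For the other comparisons within a condition or a transfection the numbers were not treated as pairs. Gene positions were taken from the GRCm39 annotation, and promoter windows from RefSeq on GRCm38.p6.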

Additional observations from a re-analysis of the deposited data

Results flagged for a closer look

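In 11 of 222 groups of 6 libraries, the highest or lowest library of an interferon response gene lay far from the other 5 relative to the whole range, where chance gives about 1 in 20. The lowest library was the distant one for *B2m* in Rest *Tug1* KD (248 RPM, next 312). The highest library was distant for *Bst2* in EPS 3h control (37.8 RPM, next 23) and EPS 3h *Tug1* KD (44.7 RPM, next 26.7), for *Gbp2* in EPS 0h *Tug1* KD (2.46 RPM, next 1.22) and for *Gbp3* in EPS 3h control (3.23 RPM, next 1.38). It was also distant for *Ifi35* in EPS 0h *Tug1* KD (12.7 RPM, next 9.86), *Ifih1* in EPS 3h *Tug1* KD (5.13 RPM, next 2.52), *Irf1* in Rest control (100.8 RPM, next 65.7) and *Irf3* in EPS 3h control (36.1 RPM, next 28.4). The last 2 were *Isg15* in EPS 3h control (5.78 RPM, next 3.53) and *Parp14* in EPS 3h *Tug1* KD (4.81 RPM, next 2.80).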

How the results depend on the processing

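Of 72 calls over the comparisons, DESeq2 kept 72, limma-voom 69, library size as the only scaling 68, no low-count filter 67, and the replicate block and the block of replicates 1 to 3 against 4 to 6 (experiment block) 72 each, with 37 and 32 calls added. A filter of 1 CPM in 24 libraries kept 66 of the 67 calls it could test. Fitted alone, replicates 1 to 3 kept 59 and replicates 4 to 6 kept 55, where fewer libraries enter each fit. The counts that moved by over 1.5 times were as follows. For *Tug1* KD against control at Rest (2 calls) library size only gave 1, replicates 1 to 3 alone 0 and replicates 4 to 6 alone 8. At EPS 0h (3 calls) the replicate block gave 7, the experiment block 6, replicates 1 to 3 alone 1 and 4 to 6 alone 6, and at EPS 3h (2 calls) these gave 7, 6, 5 and 4. For EPS 0h against Rest in control (12 calls) the replicate block gave 19 and replicates 1 to 3 alone 20, and in *Tug1* KD (11 calls) the replicate block gave 18, the experiment block 17 and replicates 1 to 3 alone 17. For EPS 3h against EPS 0h in control (7 calls) replicates 4 to 6 alone gave 3. The replicate block also raised the share of all genes called at EPS 0h in control, from 18.4% to 25.5% down and from 20.5% to 24.4% up. Shares over all genes are not given for each of these fits, so these counts do not set the 37 genes apart. In replicates 4 to 6 alone the direction turned for *Ifit3* (log2FC -0.98) and *Usp18* (-1.35) under *Tug1* KD at Rest and for *Rnf213* at EPS 3h against Rest in *Tug1* KD (-0.14). The cause was not tested. The analysis with the replicate block removed 0 calls. It is given in the report for the comparisons in which every same-numbered pair correlated over 0.1, and for the interaction of *Mx2*. In the others it added *Xaf1* under *Tug1* KD at Rest, *Ifit2*, *Oas2* and *Xaf1* at EPS 3h in *Tug1* KD, and *Irf9* and *Stat2* from EPS 0h to EPS 3h in control.

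Library size as the only scaling moved the median of all genes by -0.17 at EPS 3h against Rest in control and in *Tug1* KD. With it 0 genes were up and 1 down under *Tug1* KD at Rest, 2 up and 2 down at EPS 0h, and 0 up and 7 down at EPS 3h against EPS 0h in control. *Parp9* did not pass at EPS 3h in control, and *Rnf213* in *Tug1* KD had a log2FC of 0.32 (FDR = 0.148). *Bst2* at EPS 0h did not pass with limma-voom (FDR = 0.0619).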

Other observations

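The gene next to *Mx2*, *Tmprss2*, a membrane serine protease, lies on the other strand of chromosome 16, with its 3′ end 3781 bases beyond the 3′ end of *Mx2*, and was looked at after the values of *Mx2* were seen. It rose at EPS 0h (log2FC 1.78, FDR = 4.60e-05, edgeR) and EPS 3h (log2FC 1.29, FDR = 0.00143) in control, and in *Tug1* KD against control its log2FC was 0.90, 0.58 and 0.84 at Rest, EPS 0h and EPS 3h (FDR = 0.0933, 0.190 and 0.0622). *Ripk4*, a kinase gene further along the chromosome, rose as well at EPS 0h (log2FC 2.13, FDR = 0.000167) and EPS 3h (log2FC 3.47, FDR = 3.99e-09) in control, and its log2FC under *Tug1* KD was 0.54, 0.53 and 0.56 (FDR = 0.627, 0.335 and 0.250). Both genes were low in Rest control, with *Tmprss2* at a mean of 0.572 RPM (SD 0.255) and *Ripk4* at 0.151 RPM (SD 0.112). At EPS 3h in control the means were 1.41 and 1.71 RPM, so these folds start from levels near the floor.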
